A study of Arabidopsis thaliana with 12 samples.

Results

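The comparison described here sets Arabidopsis thaliana plants that received the inhibitor L-AOPP together with the auxin IAA against mock-treated plants. Its members are 6 of the 12 arrays in the series, 3 of L-AOPP+IAA and 3 of mock, chosen by the treatment in each title and paired by replicate number. All plants were of the Col-0 ecotype, were grown for 7 days in shaken liquid half-strength MS medium at 21 °C in 24 h light, and were harvested whole. The L-AOPP+IAA plants were exposed to 50 µM L-AOPP for 3 h and to 1 µM IAA for the last 2 h of these. The L-AOPP plants, whose 3 arrays are given beside the comparison, had the same 3 h in 50 µM inhibitor with no IAA, and the mock plants had only DMSO, the solvent that carried the chemicals in every group. No group received IAA without the inhibitor, so the comparison measures both additions together. The remaining 3 arrays, of L-AOPP with indole-3-pyruvic acid (IPyA), enter the low-signal filter, the replicate block and the estimate of the spread, but neither side of the comparison.

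IAA (indole-3-acetic acid) is the main natural auxin, a hormone that directs cell elongation, lateral root formation and vascular patterning. It binds TIR1/AFB receptors, which mark Aux/IAA repressors for destruction and so release ARF transcription factors to act on auxin-responsive genes, among them genes of the Aux/IAA repressors themselves and of GH3 enzymes that conjugate IAA to amino acids. L-AOPP (L-2-aminooxy-3-phenylpropionic acid) is an aminooxy analogue of phenylalanine that inhibits auxin biosynthesis and phenylalanine ammonia-lyase. The comparison asks what added auxin moves beyond the untreated level and what remains changed although auxin was added back.

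Values are MAS5 signals, a linear fluorescence intensity per probe set on a scale with no unit. Array medians lay between 169 and 185, and Spearman correlations between arrays lay between 0.969 and 0.988. RNA integrity was read from the GAPDH control, whose 3′ to 5′ signal ratio averaged 1.28 ± 0.123 in L-AOPP+IAA plants and 1.32 ± 0.0848 in mock plants (SD, n = 3 each). The same ratio averaged 11.6 ± 2.57 in L-AOPP+IAA plants and 11.7 ± 1.51 in mock plants for the actin control, and 2.26 ± 0.198 in L-AOPP+IAA plants and 2.17 ± 0.102 in mock plants for the ubiquitin control. Replicate 1 stood apart for some genes in every group. STZ, a zinc finger transcription factor of stress responses, had signals of 432, 6278 and 5395 in L-AOPP+IAA plants, 386, 4780.1 and 3410.2 in L-AOPP plants and 368, 7279.9 and 6806 in mock plants (replicates 1, 2 and 3, the order used throughout). EXPA7, an expansin of root hair cells, had 1631, 416 and 442 in L-AOPP+IAA plants, 1589.6, 582 and 775 in L-AOPP plants and 1929, 259 and 320.2 in mock plants. Replicate 1 was the lowest array of each group for STZ and the highest for EXPA7. As a check of the tissue label, RCA, which encodes the leaf protein Rubisco activase, had 17323, 19032 and 15037 in L-AOPP+IAA plants and 16910.3, 17774 and 14809 in mock plants, so leaf and root hair transcripts were measured in each of these samples.

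Auxin added to inhibited plants left 270 of 15922 tested probe sets different from mock, of which 195 were higher and 75 lower. These are 1.70% of the tested probe sets in either direction, 1.22% for the rises and 0.471% for the falls. A probe set was called where limma's moderated test with the replicate number as a block gave a Benjamini-Hochberg adjusted p under 0.05. Since whole plants were extracted, fewer cells of a type and less RNA per cell cannot be told apart for any of them. Rises were larger than falls: the median log2 difference was 0.89 among the called rises and -0.65 among the called falls, against -0.01 over all tested probe sets, and 87 rises and 17 falls reached 2-fold. The arrays of the groups did not overlap for 175 of the 195 rises and 60 of the 75 falls, while over all tested probe sets 4.03% lay wholly above mock and 3.47% wholly below it. Of the called probe sets, 140 are paired with 1 gene (96 higher and 44 lower), 127 are unnamed here and 3 stand for several genes. The count rests on the pairing: without the block 71 were called, 66 higher and 5 lower, all of them also called with it. Without replicate 1 the calls numbered 168 (136 higher and 32 lower), without replicate 2 they numbered 145 and without replicate 3 they numbered 121.

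**Figure D1:**
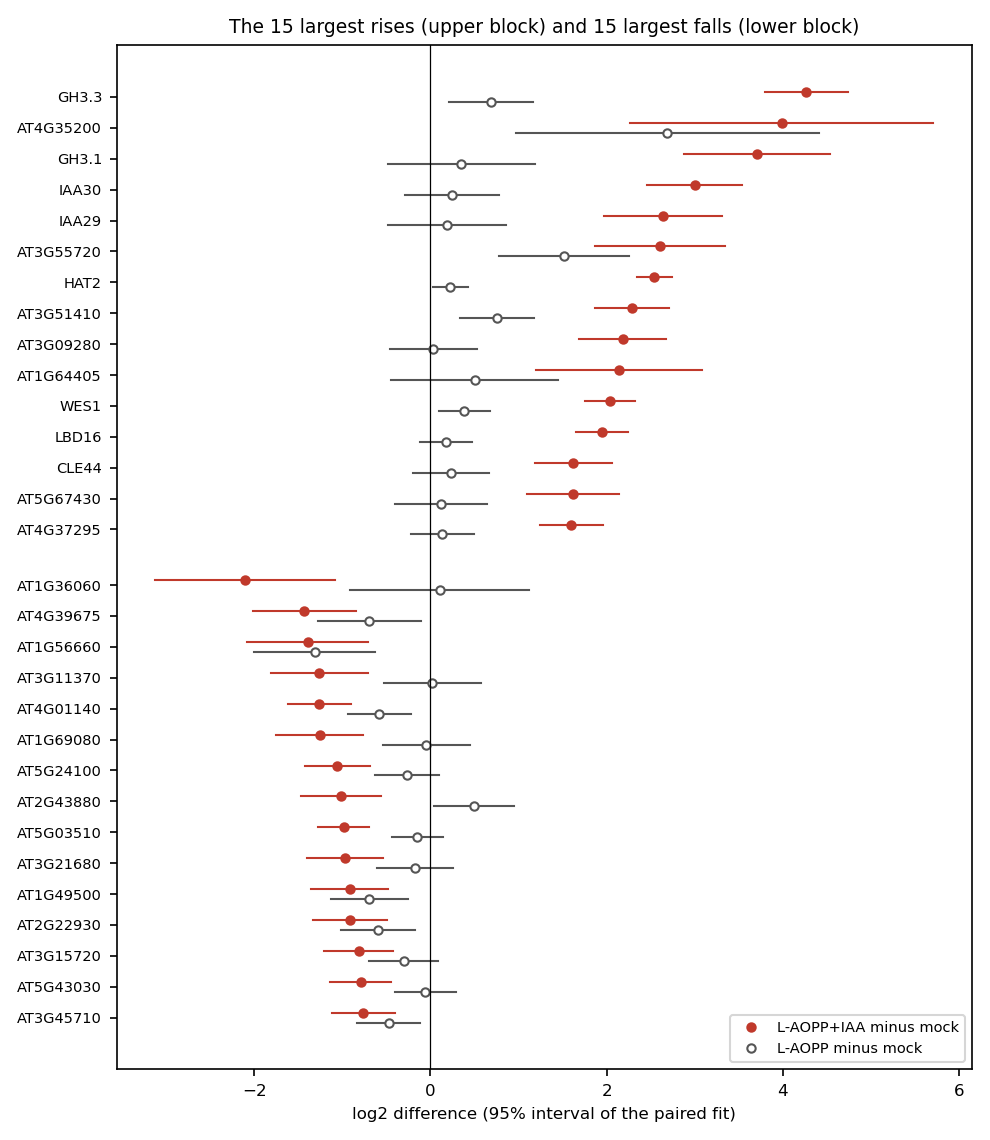
Log2 differences from mock (horizontal axis) of the 15 genes with the largest called rises, upper block, and the 15 with the largest called falls, lower block. Filled points are L-AOPP+IAA minus mock, open points are L-AOPP minus mock, and bars are 95% intervals of the paired fit of 12 arrays. The rises reach 4.27 for GH3.3, the falls reach -2.11 for AT1G36060, and most open points lie nearer to 0 than the filled ones.

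The GH3 enzymes gave the largest rise among probe sets with 1 gene. GH3.3, which conjugates IAA to amino acids and so removes it from the active pool, had signals of 10387, 10187 and 8769 in L-AOPP+IAA plants, 1261, 708 and 609 in L-AOPP plants and 825, 525 and 300.3 in mock plants. All 3 L-AOPP+IAA arrays were far above every other array, and the difference from mock was 4.27 ± 0.22 on the log2 scale (SE, n = 3 pairs), or 19.2-fold (adjusted p = 2.69e-07). GH3.1, of the same family, had 1135, 904 and 720.3 in L-AOPP+IAA plants, 75.5, 145 and 63.1 in L-AOPP plants and 29.5, 205 and 54.8 in mock plants. Its L-AOPP+IAA arrays were again separate from the rest, with a log2 difference of 3.71 ± 0.38 (adjusted p = 0.000147), although the mock arrays spread widely, with replicate 2 high and replicate 1 below the filter level of 47.4. WES1 (GH3.5), whose enzyme conjugates IAA and salicylic acid, had 6457, 5673 and 5368 in L-AOPP+IAA plants, 2665, 1862 and 1279.7 in L-AOPP plants and 1579, 1628 and 1108 in mock plants, a log2 difference from mock of 2.04 ± 0.13 (adjusted p = 2.15e-06). Its L-AOPP arrays overlapped mock and its L-AOPP+IAA arrays were more than double any other. GH3.17, which makes the glutamate conjugate of IAA, had 1381, 1371 and 1132 in L-AOPP+IAA plants and 1084, 1416 and 1059.9 in mock plants, and its log2 difference of 0.13 ± 0.09 did not pass (adjusted p = 0.611). GH3.9 had 75.3, 67.7 and 49.1 in L-AOPP+IAA plants and 71.4, 60.6 and 52.3 in mock plants, with an interval of the log2 difference of -0.47 to 0.57 (adjusted p = 0.965). Of the 5 GH3 genes tested, 3 rose and 0 fell, with a median log2 difference of 2.04, where 1.22% of all tested probe sets rose and their median was -0.01.

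Genes of Aux/IAA repressors rose as well. IAA30, one of the family that lacks the degron by which auxin marks these proteins for destruction, had signals of 343, 278 and 346 in L-AOPP+IAA plants, 61.2, 43.5 and 40.0 in L-AOPP plants and 37.7, 51.4 and 33.1 in mock plants. IAA29, another member of the family, had 267, 234 and 207 in L-AOPP+IAA plants, 41.1, 60.7 and 31.3 in L-AOPP plants and 31.8, 52.7 and 31.7 in mock plants. For both, the L-AOPP and mock arrays intermixed near the filter level and the L-AOPP+IAA arrays were several times higher. The log2 difference from mock was 3.00 ± 0.25 for IAA30 (adjusted p = 1.86e-05) and 2.64 ± 0.31 for IAA29 (adjusted p = 0.00041), and since signals near that level carry more noise the size of these folds is uncertain. IAA18 had 599, 656 and 571 in L-AOPP+IAA plants, 479.9, 534 and 473 in L-AOPP plants and 381, 493 and 486 in mock plants, a small separation from mock with a log2 difference of 0.43 ± 0.10 (adjusted p = 0.0441). This call was lost without any single L-AOPP+IAA array and without Mock replicate 1 or 2 (adjusted p 0.111 to 0.255). IAA20, which like IAA30 lacks the degron, had 282, 160.4 and 222 in L-AOPP+IAA plants and 200.0, 108 and 153 in mock plants, groups that overlap, and did not pass (log2 difference 0.54 ± 0.18, adjusted p = 0.232). Of the 7 Aux/IAA genes with a named probe set, these 4 passed the low-signal filter, and 3 of them rose, where 1.22% of all tested probe sets did. IAA30 and IAA29 passed the filter through their L-AOPP+IAA arrays, so the 3 rises among the tested members are in part set by the filter. With the filter at the 50th percentile IAA18 was the only member left.

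Of 14 listed transcription factors of the auxin response 4 were tested, and 2 of these 4 rose, where 1.22% of all tested probe sets did. HAT2, an auxin-inducible homeodomain-leucine zipper factor, had 2426, 2261 and 2029 in L-AOPP+IAA plants, 455, 458 and 429 in L-AOPP plants and 354, 431 and 368 in mock plants. The 9 values form a high set of 3 and a low set in which the L-AOPP arrays all lie above 420 and the mock arrays range between 354 and 431. Its log2 difference from mock, 2.54 ± 0.09, carried the smallest adjusted p among the genes named here (1.26e-08). LBD16, a LOB-domain factor that starts lateral root formation, had 915, 849.7 and 727 in L-AOPP+IAA plants, 259, 192 and 292 in L-AOPP plants and 239, 203 and 205 in mock plants, a log2 difference of 1.94 ± 0.14 (adjusted p = 4.33e-06). PUCHI, an AP2 factor of lateral root primordia, had 50.4, 105 and 109 in L-AOPP+IAA plants and 57.4, 31.9 and 29.3 in mock plants. Replicate 1 was slightly below its mock partner and the other two were far above theirs, and the log2 difference of 1.14 ± 0.37 did not pass (adjusted p = 0.195). UPB1, a bHLH factor that controls peroxidase genes in the root, had 124, 88.8 and 95.6 in L-AOPP+IAA plants, 249.9, 260.2 and 179.9 in L-AOPP plants and 179, 123 and 149 in mock plants. Its L-AOPP+IAA arrays lay at or near the bottom and its L-AOPP arrays were the highest. It did not pass against mock (log2 difference -0.55 ± 0.15, adjusted p = 0.118), while L-AOPP+IAA against L-AOPP gave -1.16 (adjusted p = 0.000925).

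**Figure D2:**
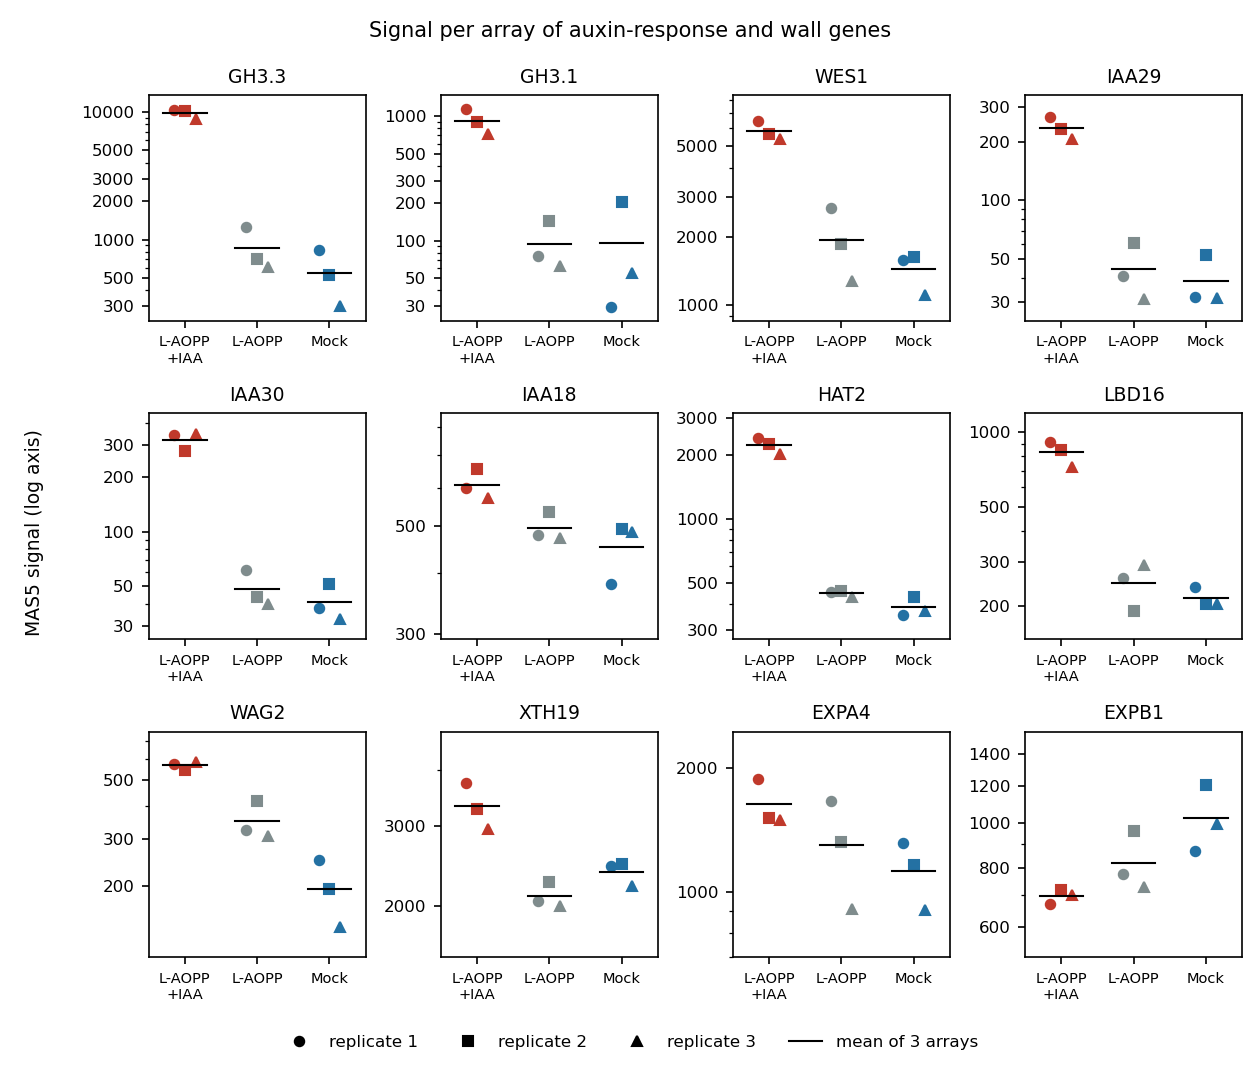
MAS5 signal (vertical log axis, one scale per panel) on each of the 3 L-AOPP+IAA, 3 L-AOPP and 3 mock arrays for 12 genes of auxin conjugation, repression, transcription, transport and the cell wall. Circles, squares and triangles are replicates 1, 2 and 3, and bars are means. The L-AOPP+IAA arrays of GH3.3, at 8769 and above, exceed every L-AOPP and mock array, the highest of which is at 1261.

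Among genes of auxin transport and of peptide signalling, WAG2 and CLE44 rose. WAG2, a kinase that phosphorylates PIN auxin efflux carriers, had 577, 547 and 586 in L-AOPP+IAA plants, 325, 416 and 309 in L-AOPP plants and 249, 194 and 139 in mock plants. The 3 groups form 3 separate levels with L-AOPP in the middle, and the log2 difference from mock was 1.59 ± 0.18 with L-AOPP+IAA (adjusted p = 0.000262) and 0.88 ± 0.18 with L-AOPP (adjusted p = 0.0493). CLE44, which encodes the TDIF peptide that keeps vascular stem cells dividing, had 253, 278 and 255 in L-AOPP+IAA plants, 93.3, 95.7 and 112 in L-AOPP plants and 77.1, 111 and 72.2 in mock plants. Only its L-AOPP+IAA arrays stood apart, with a log2 difference from mock of 1.62 ± 0.20 (adjusted p = 0.000671). PID2, a kinase of the same family as WAG2, had 158, 120.2 and 88.0 in L-AOPP+IAA plants and 82.5, 84.4 and 65.7 in mock plants and did not pass (log2 difference 0.62 ± 0.16, adjusted p = 0.0901). Of the 3 tested genes of auxin synthesis and breakdown none was called, where 1.70% of all tested probe sets were. YUC2, a flavin monooxygenase that makes IAA, had 119.5, 131 and 133 in L-AOPP+IAA plants and 132, 129.7 and 105 in mock plants, with an interval of the log2 difference of -0.28 to 0.41.

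Of 12 tested expansins and xyloglucan endotransglucosylase/hydrolases (XTHs), genes of wall loosening, 2 rose, 1 fell and 9 did not pass, where 1.22% of all tested probe sets rose and 0.471% fell. The median log2 difference of the list was 0.16, and it was 0.08 without L-AOPP+IAA replicate 2 and without Mock replicate 3. Of the 12 genes, 0 were called without the replicate block, without replicate 2 or without replicate 3, and 1 rose and 1 fell without replicate 1. XTH19, whose enzyme cuts and rejoins xyloglucan, had 3749, 3276 and 2961 in L-AOPP+IAA plants, 2047, 2254 and 1993 in L-AOPP plants and 2451, 2475 and 2214 in mock plants. The L-AOPP+IAA arrays were above all mock arrays, and the log2 difference was 0.48 ± 0.07 (adjusted p = 0.00298, and 0.135 without the replicate block). The call of XTH19 was kept whichever single array was left out. EXPA4, an expansin that loosens walls, had 1878, 1514 and 1496 in L-AOPP+IAA plants and 1313, 1167 and 906 in mock plants, a log2 difference of 0.54 ± 0.10 (adjusted p = 0.0165). That call was lost without L-AOPP+IAA replicate 3, Mock replicate 1 or Mock replicate 3 (adjusted p 0.069 to 0.115), and without the replicate block. EXPB1, a beta-expansin, fell instead, with 671, 719 and 701 in L-AOPP+IAA plants and 872, 1203 and 995 in mock plants. Its log2 difference was -0.54 ± 0.11 (adjusted p = 0.0252), and the call was lost without any single array except Mock replicate 1 (adjusted p 0.0585 to 0.136). XTH18, another XTH, had 1577, 1856 and 2056 in L-AOPP+IAA plants, 888, 747 and 1119 in L-AOPP plants and 793, 1481 and 1749 in mock plants. Its L-AOPP+IAA arrays overlapped mock (log2 difference 0.52 ± 0.17, adjusted p = 0.196) and were above L-AOPP, from which they differed by 1.01 (adjusted p = 0.00436). EXPA16, another expansin, had 9.7, 83.4 and 81.4 in L-AOPP+IAA plants and 84.0, 129 and 83.6 in mock plants. Its log2 difference of -1.26 ± 0.46 did not pass (adjusted p = 0.268).

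The other genes among the 15 largest rises carry only locus codes in the annotation used here. AT3G51410 had 1058, 505 and 454 in L-AOPP+IAA plants, 338, 162 and 181 in L-AOPP plants and 308, 81.7 and 82.1 in mock plants. Replicate 1 was the highest array of each group, and within each pair the L-AOPP+IAA array was at least 3 times its mock partner, a log2 difference of 2.29 ± 0.19 (adjusted p = 2.34e-05). AT3G09280 had 222, 179 and 188 in L-AOPP+IAA plants, 40.6, 48.4 and 43.2 in L-AOPP plants and 49.6, 38.0 and 42.3 in mock plants, with a log2 difference of 2.18 ± 0.23 (adjusted p = 0.000147) and no overlap. Its L-AOPP and mock means lie below the filter level of 47.4, so the size of this fold is uncertain. AT5G67430 and AT4G37295 rose by 1.62 and 1.60 on the log2 scale (adjusted p = 0.00235 and 0.000147), with L-AOPP arrays that overlapped mock. AT3G55720 had 343, 129.5 and 139.5 in L-AOPP+IAA plants, 88.0, 70.0 and 104 in L-AOPP plants and 76.2, 17.9 and 20.1 in mock plants. The L-AOPP arrays were on average above mock, and the differences were 2.61 ± 0.34 with L-AOPP+IAA (adjusted p = 0.00108) and 1.52 ± 0.34 with L-AOPP (adjusted p = 0.074). AT4G35200 had 320.3, 175 and 166 in L-AOPP+IAA plants, 62.5, 124 and 80.6 in L-AOPP plants and 1.5, 43.0 and 36.1 in mock plants. Its log2 difference of 3.99 ± 0.80 (adjusted p = 0.0212) rests in part on the signal of 1.5 in Mock replicate 1: it was 2.50 without that array, and the call was lost without L-AOPP+IAA replicate 1 (adjusted p = 0.143) or 3 (adjusted p = 0.0533). AT1G64405 had 105, 126 and 187 in L-AOPP+IAA plants and 25.6, 24.3 and 46.4 in mock plants, a log2 difference of 2.14 ± 0.44 (adjusted p = 0.0246) whose call did not survive leaving out any one array of the 6 (adjusted p then 0.0617 to 0.141) and whose mock arrays average below the filter level. The other 13 of the 15 rises kept their call whichever array was left out, and 11 of the 15 were called without the replicate block. Like IAA30 and IAA29, AT3G09280, AT4G35200 and AT1G64405 passed the low-signal filter through their L-AOPP+IAA arrays. The presence of these genes among the largest rises is therefore in part set by the filter.

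The 15 largest falls all belong to genes that carry only locus codes here, and 3 of them kept their call without each of the 6 arrays in turn. AT5G03510 had 75.4, 109 and 68.3 in L-AOPP+IAA plants, 132, 177 and 136 in L-AOPP plants and 149.7, 208 and 140.0 in mock plants. Each L-AOPP+IAA array was below all mock arrays, the L-AOPP arrays were close to mock, and the log2 difference was -0.99 ± 0.13 with L-AOPP+IAA (adjusted p = 0.00137) and -0.15 with L-AOPP. AT5G24100 had 81.7, 82.3 and 109 in L-AOPP+IAA plants, 155, 171 and 143 in L-AOPP plants and 207, 193 and 164 in mock plants, with a log2 difference from mock of -1.06 ± 0.17 (adjusted p = 0.00458). AT4G01140 had 68.3, 93.1 and 60.9 in L-AOPP+IAA plants, 132, 126 and 96.3 in L-AOPP plants and 219, 171 and 143 in mock plants. Here the L-AOPP arrays lay between the other groups, and the log2 differences from mock were -1.26 ± 0.16 with L-AOPP+IAA (adjusted p = 0.00104) and -0.58 with L-AOPP (adjusted p = 0.14). These are the 3 whose calls were kept whichever array was left out, and 2 of the 15 falls were called without the replicate block.

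The remaining 12 falls each lost their call without at least 3 of the 6 arrays in turn (adjusted p 0.0507 to 0.247). AT1G36060 had 13.4, 61.4 and 11.6 in L-AOPP+IAA plants, 90.1, 103 and 103 in L-AOPP plants and 121, 63.7 and 98.7 in mock plants. L-AOPP+IAA replicate 2 was close to its mock partner and the other two were far below the filter level of 47.4, so the fall of -2.11 ± 0.47 on the log2 scale (adjusted p = 0.0423) has an uncertain size. It was lost without replicate 1 or 3 of either group (adjusted p 0.162 to 0.247). AT2G43880 had 97.7, 44.9 and 62.1 in L-AOPP+IAA plants, 175, 213 and 169 in L-AOPP plants and 154, 108 and 137 in mock plants. Its L-AOPP arrays were the highest of the 3 groups, with log2 differences from mock of -1.02 ± 0.21 with L-AOPP+IAA (adjusted p = 0.026) and 0.49 with L-AOPP (adjusted p = 0.332). AT1G56660 had 34.1, 43.8 and 56.2 in L-AOPP+IAA plants, 37.1, 46.0 and 58.1 in L-AOPP plants and 124, 69.6 and 178 in mock plants. In this gene the L-AOPP+IAA and L-AOPP arrays of each pair were nearly equal and both were below mock, at -1.39 ± 0.32 with L-AOPP+IAA (adjusted p = 0.0458) and -1.31 ± 0.32 with L-AOPP (adjusted p = 0.087). The call of AT2G43880 was kept only without L-AOPP+IAA replicate 1 and that of AT1G56660 only without Mock replicate 2 (adjusted p 0.0553 to 0.231 without the others).

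The remaining 9 falls lay between -1.43 on the log2 scale for AT4G39675 and -0.76 for AT3G45710, with adjusted p between 0.0113 and 0.0405. AT4G39675 had 241, 79.9 and 63.6 in L-AOPP+IAA plants, 242, 162 and 145 in L-AOPP plants and 635, 212 and 178 in mock plants, high in replicate 1 of each group and lowest with L-AOPP+IAA in each pair. AT3G11370 and AT1G69080 both fell by 1.26 on the log2 scale, against L-AOPP differences of 0.02 and -0.05. AT3G21680, AT1G49500, AT2G22930, AT3G15720 and AT5G43030 fell by 0.79 to 0.97. AT1G49500 and AT3G45710 lost their call whichever of the 6 arrays was left out.

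Fewer probe sets were called with the inhibitor alone. Against the same 3 mock arrays, L-AOPP plants had 92 called probe sets (0.578%), 25 higher (0.157%) and 67 lower (0.421%). Of these, 52 have 1 gene, 13 higher and 39 lower. After auxin had been added, 8 of these 52 genes were called against mock in the same direction, 1 was called in the opposite direction and 43 were not called. Over all tested probe sets 1.70% were called in L-AOPP+IAA against mock. The 52 were picked by their L-AOPP call, so their L-AOPP differences are selected to be large. Both comparisons use the same mock arrays, so an unusual mock array would move a gene the same way in each. The direct comparison of L-AOPP+IAA with L-AOPP, which shares arrays with both, called 590 probe sets (3.71%), 406 higher (2.55%) and 184 lower (1.16%).

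Of the 8 genes that stayed changed, 4 were higher and 4 lower in both inhibited groups. Besides WAG2, the higher ones carry locus codes only. AT3G13650 had 628, 715 and 570.4 in L-AOPP+IAA plants, 507, 540.0 and 465 in L-AOPP plants and 213, 431 and 283 in mock plants, with both inhibited groups above every mock array and log2 differences from mock of 1.10 ± 0.15 with L-AOPP+IAA (adjusted p = 0.00143) and 0.77 ± 0.15 with L-AOPP (adjusted p = 0.0467). AT5G62340 had 1951, 1515 and 2068 in L-AOPP+IAA plants, 1952, 2706 and 2026 in L-AOPP plants and 801, 1369.7 and 1209 in mock plants, and its log2 differences were 0.73 ± 0.17 with L-AOPP+IAA (adjusted p = 0.0449) and 1.00 ± 0.17 with L-AOPP (adjusted p = 0.0232). AT5G66590 had 623, 629.7 and 702 in L-AOPP+IAA plants, 699, 737 and 753 in L-AOPP plants and 484, 515 and 408 in mock plants, and its log2 differences were 0.48 ± 0.11 with L-AOPP+IAA (adjusted p = 0.0448) and 0.64 ± 0.11 with L-AOPP (adjusted p = 0.0235). For these last genes the mean of the L-AOPP arrays was above that of the L-AOPP+IAA arrays, but the log2 difference of L-AOPP+IAA from L-AOPP, -0.27 and -0.16, did not pass (adjusted p = 0.481 and 0.517).

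Among the lower ones, NET4B, of a family of actin-binding membrane proteins, had 969, 1627 and 1388 in L-AOPP+IAA plants, 948, 1478 and 1427 in L-AOPP plants and 1519.9, 1849.8 and 1819 in mock plants. Its log2 difference from mock was -0.41 ± 0.09 with L-AOPP+IAA (adjusted p = 0.0361) and -0.45 ± 0.09 with L-AOPP (adjusted p = 0.0465), and L-AOPP+IAA replicate 2 was within the range of the mock arrays. AT3G46280 had 892, 858 and 993 in L-AOPP+IAA plants, 781, 785 and 715 in L-AOPP plants and 1174, 1296 and 1139.8 in mock plants, the inhibited groups lying wholly below mock, with log2 differences of -0.40 ± 0.09 with L-AOPP+IAA (adjusted p = 0.0405) and -0.66 ± 0.09 with L-AOPP (adjusted p = 0.0069). AT3G45700 and AT4G11210 differed from mock by -0.54 and -0.44 with L-AOPP+IAA (adjusted p = 0.049 for each), and by -0.66 and -0.54 with L-AOPP (adjusted p = 0.038 and 0.0353). Calls of these 8 genes were mostly close to the threshold. WAG2 and AT3G13650 kept theirs without each of the 6 arrays, and the other 6 genes lost theirs without at least 4 of the arrays in turn, and AT3G45700 and AT4G11210 lost theirs whichever array was left out (adjusted p 0.0598 to 0.288 over all these losses). Without the replicate block only 1 of the 8 was called.

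AT4G20830 was called in opposite directions. It had 1519, 2095 and 2075 in L-AOPP+IAA plants, 688, 787 and 642 in L-AOPP plants and 1201, 1641 and 1196 in mock plants. The L-AOPP arrays were below every mock array, and the L-AOPP+IAA array of each pair was above its mock partner although the groups overlap. The log2 difference from mock was 0.50 ± 0.10 with L-AOPP+IAA (adjusted p = 0.0292) and -0.92 ± 0.10 with L-AOPP (adjusted p = 0.00324). The rise was lost without L-AOPP+IAA replicate 2 or 3 or Mock replicate 1 or 3 (adjusted p 0.0599 to 0.182) and gave an adjusted p of 0.725 without the replicate block.

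**Figure D3:**
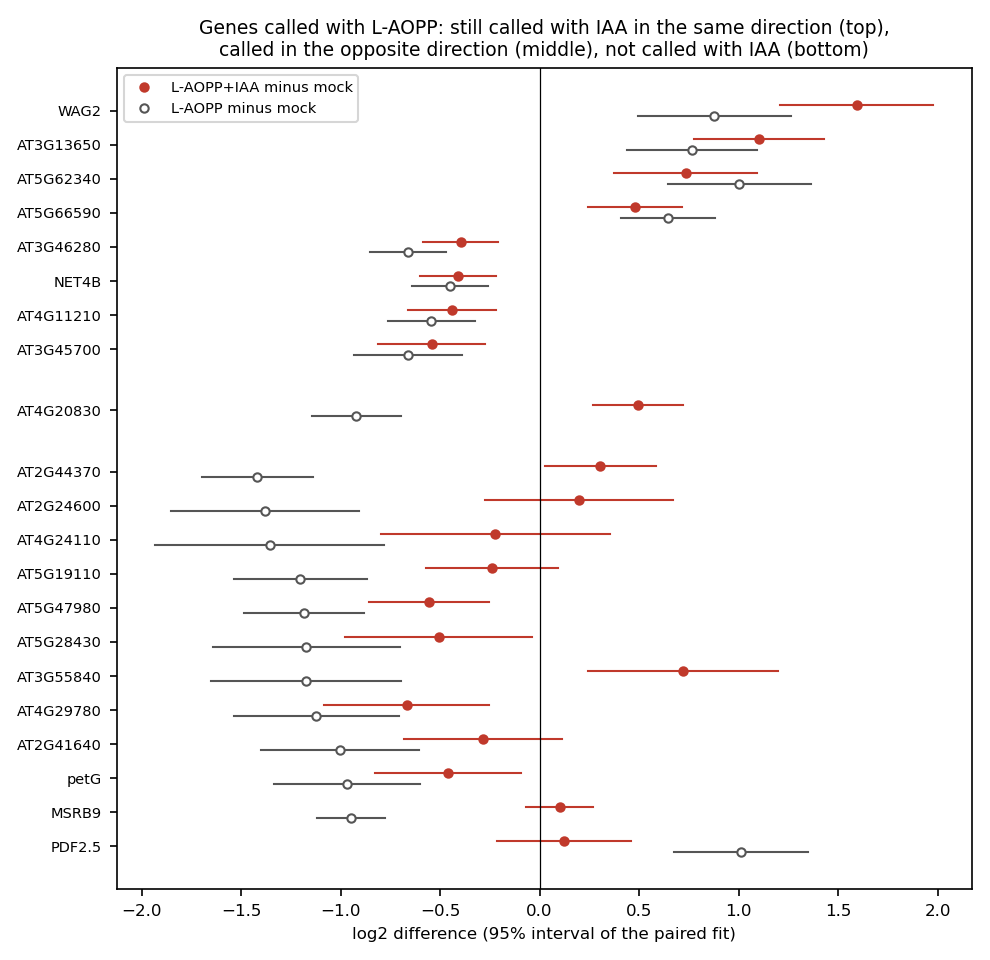
Log2 differences from mock (horizontal axis, with 95% intervals of the paired fit) of genes called with L-AOPP. The top block shows the 8 genes called in the same direction with L-AOPP+IAA, the middle AT4G20830, and the bottom 12 of the 43 not called with L-AOPP+IAA, those with the largest L-AOPP difference. Filled points are L-AOPP+IAA minus mock and open points L-AOPP minus mock; in the bottom block 11 of 12 open points lie below 0 and the filled points lie between -0.67 and 0.72.

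Most genes called with the inhibitor were not called against mock after auxin, where 1.70% of all tested probe sets were called. Of these 43, 34 were lower and 9 higher with L-AOPP. MSRB9, a methionine sulfoxide reductase that repairs oxidised proteins, had 4468, 6592 and 5823 in L-AOPP+IAA plants, 2198, 2943 and 2998 in L-AOPP plants and 4176, 6792 and 4905 in mock plants. Its L-AOPP arrays were all below mock and its L-AOPP+IAA arrays intermixed with mock, with log2 differences from mock of 0.10 ± 0.08 with L-AOPP+IAA (interval -0.07 to 0.27, adjusted p = 0.678) and -0.95 ± 0.08 with L-AOPP (adjusted p = 0.000344). PDF2.5, of the plant defensin family, moved the other way, with 596, 378 and 618 in L-AOPP+IAA plants, 1018, 1043 and 831 in L-AOPP plants and 476, 487 and 466 in mock plants. Its log2 difference from mock was 0.12 ± 0.16 with L-AOPP+IAA (interval -0.22 to 0.46, adjusted p = 0.823) and 1.01 ± 0.16 with L-AOPP (adjusted p = 0.0179). AT2G44370 had 271, 326 and 389 in L-AOPP+IAA plants, 81.2, 97.0 and 121 in L-AOPP plants and 248, 291 and 253 in mock plants, the largest L-AOPP fall of the 43 at -1.42 ± 0.13 (adjusted p = 0.00056), while the L-AOPP+IAA difference was 0.31 ± 0.13 (adjusted p = 0.357).

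A missed threshold does not place a gene at the mock level, and the intervals differ between these genes. AT5G47980 had 228, 322 and 177 in L-AOPP+IAA plants, 165, 148 and 144 in L-AOPP plants and 337, 379.5 and 323 in mock plants, with the L-AOPP+IAA arrays between the other groups and an interval of -0.86 to -0.25 that lies wholly below 0 (log2 difference -0.55, adjusted p = 0.0748). AT4G29780 had 236, 2058 and 2241 in L-AOPP+IAA plants, 201, 1599.7 and 1315 in L-AOPP plants and 419.5, 2974 and 3488 in mock plants, far lower in replicate 1 of every group. Its interval with L-AOPP+IAA was -1.08 to -0.25 (log2 difference -0.67, adjusted p = 0.136). AT3G55840 had 67.9, 241 and 123 in L-AOPP+IAA plants, 16.9, 71.6 and 32.4 in L-AOPP plants and 30.8, 152 and 95.9 in mock plants, and its interval of 0.24 to 1.20 lies wholly above 0 (log2 difference 0.72, adjusted p = 0.17).

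Plastid-encoded transcripts were the largest list, with 67 tested genes. With L-AOPP+IAA 1 of them was called lower, where 0.471% of all tested probe sets were, and 0 higher; 53 of the 67 log2 differences from mock were below 0, and their median was -0.17, against -0.01 over all tested probe sets. With L-AOPP alone 9 were called lower, where 0.421% of all tested probe sets were, with a median of -0.38 over the list. The called gene was rpoC2, a subunit of the plastid RNA polymerase, which had 732, 1196 and 1014 in L-AOPP+IAA plants, 896, 1012 and 1088 in L-AOPP plants and 1439, 1544 and 1531 in mock plants. Both inhibited groups were wholly below mock, with log2 differences of -0.65 ± 0.14 with L-AOPP+IAA (adjusted p = 0.0428) and -0.60 with L-AOPP (adjusted p = 0.0881), and the call was lost without any single array except Mock replicate 2 (adjusted p 0.0699 to 0.232). The 9 genes called with L-AOPP were petG and petL of the cytochrome b6f complex, psaC of photosystem I, psbC, psbD, psbL and psbZ of photosystem II, ndhJ of the NDH complex and rpl14 of the ribosome. They differed from mock by -0.51 to -0.18 with L-AOPP+IAA and by -0.97 to -0.44 with L-AOPP, and none passed with L-AOPP+IAA (adjusted p 0.057 to 0.341). The 9 were picked by their L-AOPP call, so their L-AOPP differences are selected to be large. Directly against L-AOPP, L-AOPP+IAA was higher for psaC and psbZ (log2 difference 0.35 and 0.39, adjusted p = 0.0334 and 0.0111). The others of the 9 did not pass in that comparison (adjusted p 0.104 to 0.629). petG, for example, had 388, 866 and 655 in L-AOPP+IAA plants, 342, 498 and 452 in L-AOPP plants and 712, 871 and 926 in mock plants, so that L-AOPP+IAA replicate 2 reached its mock partner and replicates 1 and 3 did not. The median of the list was between -0.23 and -0.11 when single arrays were left out, and -0.17 and -0.19 after quantile normalization and median centring. Without Mock replicate 2, 3 members were called lower and 1 higher. Of 12 mitochondrion-encoded genes 0 were called, with a median of -0.14.

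In the lists of phenylpropanoid synthesis, which L-AOPP also targets, and of detoxification, the called genes were 3 glycosyltransferases, all lower, where 0.471% of all tested probe sets were called lower. None of these 3 passed without the replicate block (adjusted p 0.135 or above). UGT76D1, a glycosyltransferase outside the lists, was called higher (log2 difference 1.58, adjusted p = 0.00169). UGT72E2, which glucosylates monolignols, the building blocks of lignin, had 906, 605 and 958 in L-AOPP+IAA plants, 1333, 1382 and 1336 in L-AOPP plants and 1407, 1178 and 1186 in mock plants. The L-AOPP arrays were within the mock range and the L-AOPP+IAA arrays were below both, by -0.63 ± 0.12 on the log2 scale against mock (adjusted p = 0.0191) and -0.74 against L-AOPP (adjusted p = 0.00488). The call against mock was lost without L-AOPP+IAA replicate 2 or Mock replicate 1 or 2 (adjusted p 0.08 to 0.0815). It was 1 of 5 tested genes of the phenylpropanoid list, the others not passing, and none of the 4 flavonoid genes was called. UGT85A2 and UGT73B1, glycosyltransferases of small molecules, were the called members among 6 tested detoxification genes. The median log2 difference of these 6 was 0.14, with 3 above and 3 below 0, and it ranged between -0.03 without Mock replicate 1 and 0.24 without Mock replicate 2. UGT73B4, UGT73B5 and UGT76B1 of the same list were at 0.55, 0.41 and 0.37 on the log2 scale and did not pass (adjusted p = 0.459, 0.37 and 0.462). UGT85A2 had 554, 529.6 and 559.5 in L-AOPP+IAA plants and 786, 751 and 890.2 in mock plants, a log2 difference of -0.56 ± 0.11 (adjusted p = 0.0234), lost without any single array except Mock replicate 2 (adjusted p 0.0705 to 0.127). UGT73B1 had 119.6, 149 and 241 in L-AOPP+IAA plants and 192, 223 and 299 in mock plants, a log2 difference of -0.53 ± 0.12 (adjusted p = 0.039), and its call was lost whichever array was left out (adjusted p then 0.0552 to 0.194).

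**Figure D4:**
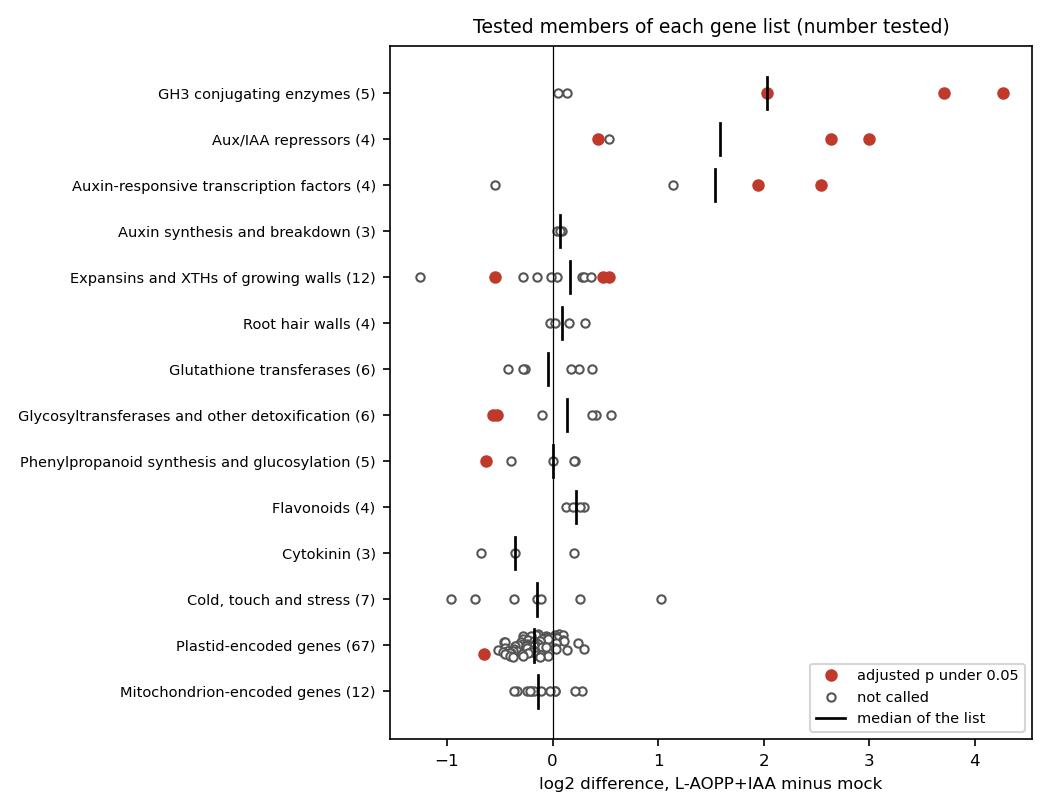
Log2 difference of L-AOPP+IAA minus mock (horizontal axis) for every tested member of each gene list with at least 3 tested members, given in brackets. Filled points have an adjusted p under 0.05, open points do not, and vertical bars are medians of the members that passed the filter, which reach 2.04 for the GH3 enzymes and are -0.17 for the plastid-encoded genes.

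Other lists had no called gene, where 1.70% of all tested probe sets were called, so an absence of calls in lists this short says little about them. The 6 tested glutathione transferases, detoxifying enzymes, had a median log2 difference of -0.04, the 4 root hair wall genes 0.09 and the 7 genes of cold, touch and stress -0.15. These medians moved with single arrays. That of the glutathione transferases lay between -0.10 without Mock replicate 1 and 0.02 without Mock replicate 2, and that of the stress genes between -0.26 without L-AOPP+IAA replicate 3 or Mock replicate 1 and -0.10 without Mock replicate 3. The root hair median was -0.08 without Mock replicate 3 and 0.43 without Mock replicate 1, where EXPA7 was called (log2 difference 0.69, adjusted p = 0.0403). With L-AOPP alone the root hair wall genes had a median of 0.70, with 0 of 4 called. The stress genes then had a median of -0.58, with 1 of 7 called lower, where 0.421% of all tested probe sets were. The median of the glutathione transferases was -0.06 with L-AOPP alone, and none was called. RR16, a response regulator of cytokinin signalling, had 62.0, 85.3 and 90.4 in L-AOPP+IAA plants and 133, 117 and 127 in mock plants, groups that do not overlap, but did not pass (log2 difference -0.68 ± 0.17, adjusted p = 0.0733). The other 2 of the 3 cytokinin genes did not pass either. The ubiquitin ligase gene PUB23, which acts in stress responses, had 765, 1747 and 1526 in L-AOPP+IAA plants and 149, 1228 and 1326 in mock plants, with most of its difference from mock in replicate 1 (log2 difference 1.03 ± 0.30, adjusted p = 0.139). The SAUR, ethylene, gibberellin and brassinosteroid, cell cycle and root marker lists had no member that is named in the annotation used here and passed the filter, and they were not analysed here.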

How the data were processed

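Whole-plant RNA was measured on 12 single-colour ATH1 arrays, 3 per group by title. Each deposited value is a probe set's linear signal intensity, computed by the authors with MAS5 per the submitters' processing notes. No source used here gives its version or scaling, and detection calls were not used. Of 22810 probe sets, 64 controls and 6824 dim ones (mean log2 not above the 30th percentile, which is a signal of 47.4) were left out, leaving 15922, of which 8708 have 1 gene in the platform annotation, 317 several and 6897 none listed. Signals under 0.05 were raised to it.

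Log2 signals of all 12 arrays were fitted with limma 3.58.1 in R 4.3.3 (group and replicate number, eBayes with an intensity trend, two-sided, Benjamini-Hochberg over all tested probe sets), and the fit was tested on simulated data. The comparison is defined as paired by number: deviations from group means correlated at 0.501 to 0.685 between arrays of one number (18 pairs) and at -0.582 to 0.123 between numbers (36 pairs). Deviations within a group cancel out, so positive values within a number go with negative ones between numbers. Part of the gap between these ranges is therefore built in. Separate cultures are not stated for the arrays of a group, so p-values measure only how these samples vary, which may be technical, and precision is limited by the number of arrays. Alternatives were no block, other filters, normalizations and floors, no trend, and fewer arrays.

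Of 361 loci in 21 gene lists, 69 were tested, and plastid and mitochondrial genes were added by chromosome and name. Named genes are the 15 largest called rises and falls with 1 gene, called list members, tested GH3, Aux/IAA and transcription factor members, the 8 genes called in both comparisons and the 12 largest called with L-AOPP only, 5 of these not described in the text. Other genes were named after their values were seen. The members, lists and rules were chosen with earlier results of these data known.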

Additional observations from a re-analysis of the deposited data

How the results depend on the processing

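Calls of L-AOPP+IAA against mock numbered 270, 195 higher and 75 lower. With no replicate block they numbered 71 (66 higher and 5 lower), and 14 of the 47 called genes among the 64 whose settings were compared were called without it. With the filter at the 50th percentile they numbered 174 (129 higher and 45 lower), where fewer probe sets were tested, and with a minimum of 2-fold 104 (87 higher and 17 lower). The falls alone moved with no filter, to 45, and with no intensity trend, to 42; the cause was not tested. When a replicate or a single array was left out, which leaves fewer arrays, the calls ranged between 121 and 247, the rises between 106 and 181 and the falls between 15 and 66. Quantile normalization, median centring, a pseudocount of 16 and a fit of the 6 arrays alone gave 254 to 284 calls. Of the 270 calls, these settings shared 262, 265, 270 and 207, in that order. The fit of the 6 arrays called 31 of the 47 genes. It called 8 of the 15 largest falls and 3 of the 8 genes called in both comparisons. With no filter 29 of the 47 were called, and with no intensity trend 26. No called gene of the 64 changed sign under any of these settings. Among these 64, 4 uncalled genes changed sign: GH3.9 gave -0.0084 after quantile normalization and ranged between -0.0959 and 0.1482 with arrays left out, PDF2.5 between -0.0765 and 0.3689, AT2G24600 between -0.0044 and 0.5095, and AT4G24110 between -0.4449 and 0.0042; the cause was not tested. Signals near or below 47.4 have no detection call here, which limits the size of low genes' folds, and 3 arrays a group limit the precision of small differences.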

Other observations

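Another 16 called genes carry a gene name and belong to none of the lists; they were singled out after their values were seen. Of these, 12 were higher and 4 lower with L-AOPP+IAA, and 6 of the 16 kept their call without each of the 6 arrays in turn. UGT76D1, a glycosyltransferase, averaged 157 ± 24.1 in L-AOPP+IAA plants and 53.0 ± 12.2 in mock plants (SD, n = 3 each), a log2 difference of 1.58 ± 0.22 (limma, adjusted p = 0.00169). BAT1, which inactivates brassinosteroids by acylation, averaged 441 ± 139 in L-AOPP+IAA plants and 206 ± 87.0 in mock plants, groups that overlap, and rose within every pair (log2 difference 1.14 ± 0.12, adjusted p = 0.000196, but 0.599 without the replicate block). HMT-1, a homocysteine methyltransferase that makes methionine, averaged 1600.3 ± 378 in L-AOPP+IAA plants and 917 ± 311 in mock plants (log2 difference 0.84 ± 0.09, adjusted p = 0.000196, and 0.671 without the block). BRH1, a RING finger protein whose transcript responds to brassinosteroid, averaged 2282 ± 70.4 in L-AOPP+IAA plants and 1514 ± 81.5 in mock plants (log2 difference 0.59 ± 0.09, adjusted p = 0.00227, and 0.0596 without the block). TRM28 and ATG8G, the second an autophagy protein, rose by 1.15 and 0.69 on the log2 scale (adjusted p = 0.00145 and 0.00453). Without the block their adjusted p was 0.0291 and 0.215. The 4 that were lower were IQD19, AGL87, CYP84A4 and a serine carboxypeptidase-like gene, scpl40, with log2 differences of -0.61 to -0.39. CYP84A4 and scpl40 lost their call whichever of the 6 arrays was left out. IQD19 and AGL87 kept theirs without only 1 of the 6 arrays (adjusted p up to 0.216 over these losses). None of the 4 passed without the block (adjusted p 0.376 or above).

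The largest rise of the comparison lay on a probe set that is unnamed here. Probe set 262099_s_at averaged 4831 ± 199 in L-AOPP+IAA plants, 155 ± 81.0 in L-AOPP plants and 64.8 ± 34.7 in mock plants, a log2 difference from mock of 6.39 ± 0.28 (limma, adjusted p = 7.64e-08). Probe set 258399_at averaged 3297 ± 343 in L-AOPP+IAA plants, 426 ± 37.1 in L-AOPP plants and 223 ± 78.5 in mock plants, a log2 difference from mock of 3.94 ± 0.20 (adjusted p = 2.47e-07). It was also called higher with L-AOPP alone, by 0.99 ± 0.20 (adjusted p = 0.0467). The largest falls among the unnamed were -2.05 ± 0.39 for 260869_at (adjusted p = 0.015) and -1.72 ± 0.32 for 245663_at (adjusted p = 0.013).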
